A study of Mus musculus with 13 samples.

Results

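The lung after bleomycin was compared between day 30 and day 14. The comparison took 8 of the 13 libraries of the series, 5 from day 30 and 3 from day 14, and described 12312 of the 43346 genes in the deposited table. These were the autosomal genes with at least 1 RPKM (a read count relative to gene length and sequencing depth) in 2 or more of the 13 libraries. All 8 libraries came from lungs of Col1a1-GFP mice aged 8 weeks that were given bleomycin, a DNA-damaging drug that injures the lung and is followed by fibrosis. The 2 sham libraries (Col1a1-GFP mice, 8 weeks, no bleomycin) are used for levels. The 3 libraries taken 14 days after pneumonectomy, from sorted primary lung fibroblasts, entered only the gene filter, the scaling between libraries and the estimate of the spread. The series' design gives the cells of every group as Col1a1-GFP fibroblasts, which by name carry a fluorescent reporter under the promoter of a collagen gene. Neither a sorting gate, the sex of the mice nor pooling of animals is stated, and the labels do not say that replicates came from separate mice. The p-values therefore measure the spread between these libraries.

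Injury by bleomycin calls lung fibroblasts into division and into the secretion of collagen, elastin and tenascin, and in young mice the scar partly resolves in the following weeks. Resting lung mesenchyme holds alveolar fibroblasts, which express the transcription factor Tcf21 and lie beside the gas-exchange surface, and adventitial fibroblasts, which express Pi16 and the matrix protein decorin and ensheathe airways and vessels. Fibrotic fibroblasts are known for Cthrc1, Spp1, Tnc and Postn. How far the profile at the later time differs from that at the earlier one, and where it lies beside the sham lung, is the question this pair of times addresses.

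Before the results, 3 properties of the libraries bear on them. First, endothelial genes marked the day 14 libraries. Summed over 24 endothelial markers, the level was 485, 904 and 837 RPKM in day 14 replicates 1 to 3, against 42.6 to 51.7 RPKM in the day 30 libraries and 57.9 to 59.4 RPKM in sham. Cdh5, the cadherin of endothelial junctions, was at 64.8, 123 and 114 RPKM at day 14 and at 0.250 to 0.691 RPKM at day 30, and 18 of the 24 markers were under 1 RPKM in all 5 day 30 libraries. Second, day 30 replicate 3 held alveolar epithelial RNA. The sum over 18 alveolar epithelial markers was 1338 RPKM in that library, 25.3 to 33.8 RPKM in the other 4 and 21.1 to 42.6 RPKM at day 14. Last, Xist, the X-inactivation RNA of female cells, was at 19.9 to 29.2 RPKM in the 5 day 30 libraries and at 0.0102 to 0.0126 RPKM in the 3 day 14 libraries. The Y-linked gene Ddx3y was listed at 0 in all day 30 libraries and was at 9.91 to 10.5 RPKM at day 14. Time and sex can therefore not be told apart in this comparison. Sham replicate 1 held both (Xist 15.9 RPKM, Ddx3y 2.14 RPKM), and sham replicate 2 held only the Y-linked RNA (Xist 0.0147 RPKM, Ddx3y 11.3 RPKM). Depth differed as well, with 79.8 to 99.9 M reads behind the RPKM of a day 14 library and 132.6 to 200.3 M at day 30. In sorted or bulk RNA of this kind, fewer cells of a type and less RNA per cell cannot be told apart.

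Of the 12312 genes, 7343 differed between the times (59.6%), at a Benjamini-Hochberg adjusted p under 0.05 in limma. Of these, 3513 were higher at day 30 (28.5%) and 3830 were lower (31.1%). Counts of list members below stand beside these shares, and a list near them holds no result particular to its genes. Most changes were small: the median absolute log2 difference was 0.32, beside a median standard error of 0.098. The day 14 and day 30 libraries did not overlap in 60.9% of the genes. A difference of more than 2-fold was seen for 904 genes higher at day 30 (7.34%) and 871 lower (7.07%). The median log2 difference over all genes was -0.013. With the values on the scale as deposited it was -0.134, and the split of calls became 2604 higher and 5019 lower. Against sham, 3550 genes differed at day 30 (28.8%) and 7805 at day 14 (63.4%). These comparisons share libraries with the main one, so day 30 levels are set beside sham gene by gene below and are no separate evidence.

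**Figure D1:**
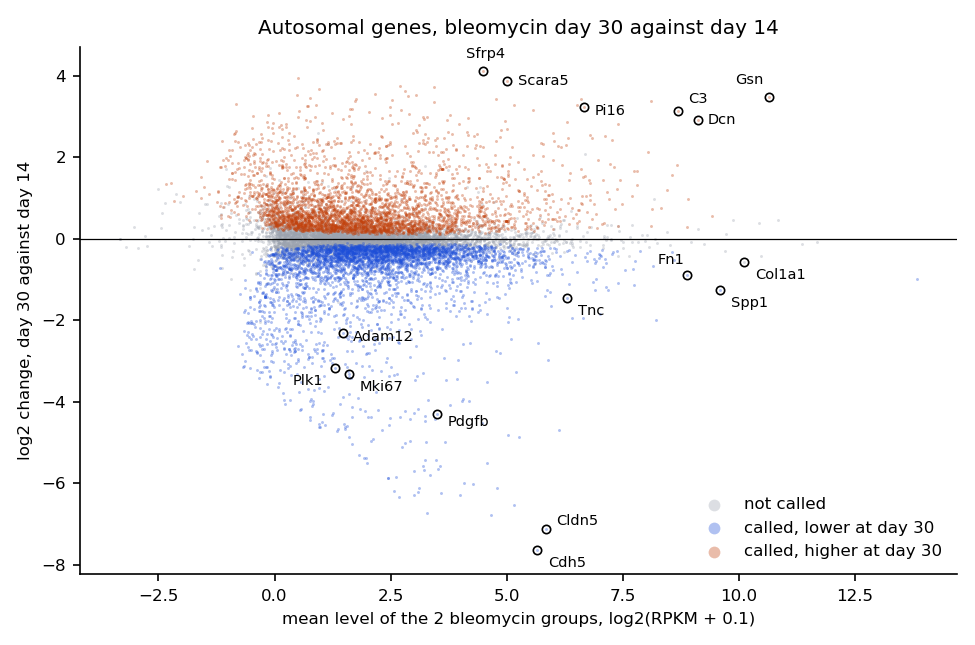
Each point is 1 of the 12312 autosomal genes. The x axis is the log2 mean of the day 14 and day 30 levels and the y axis the log2 difference of day 30 from day 14, with called genes coloured by direction. Cdh5, at -7.63, lies at the foot of the plot and Sfrp4, at 4.11, at the top.

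The largest falls at day 30 were endothelial in kind. The 12 genes with the largest called decrease, a mean of at least 5 RPKM at day 14 and no overlap between the times ran from Cdh5, which fell by 7.63 ± 0.40 (SE) on the log2 scale, to Acer2, which fell by 6.11. They include Cldn5, a tight-junction protein, Egfl7, a secreted endothelial factor, Gpihbp1, which carries lipoprotein lipase on capillaries, and the transcription factor Sox17. All 23 endothelial markers that could be tested were lower (median -5.30). As 18 of the 24 were under 1 RPKM in every day 30 library, most passed the filter only through libraries where they were higher. This count is therefore a description only. Within day 14, Cldn5 was at 63.5 RPKM in replicate 1 and at 150 and 127 RPKM in replicates 2 and 3. Replicate 1 thus had the lowest endothelial level of the 3, and its values are given below for genes that endothelial cells are known to express. A low value there was not particular to such genes. Scara5 and Fbln1, which rose at day 30, were at 2.78 and 11.95 RPKM in replicate 1. In the other day 14 libraries they were at 3.91 to 7.2 and 18 to 25.2 RPKM. Mmp2, at 77.2 RPKM beside 81.2 and 75.7 RPKM, was not lowest in replicate 1.

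Sfrp4 rose most among the called genes that averaged 5 RPKM or more at day 30 and whose times did not overlap. Sfrp4, a secreted WNT antagonist, was at 1.65, 3.9 and 2.42 RPKM at day 14 and at 49.4, 40.4, 45.9, 35.8 and 37.2 RPKM at day 30. The increase was 4.11 ± 0.25 (SE) on the log2 scale (adjusted p = 1.74e-07), and sham stood at 54.9 and 43.7 RPKM. Every day 30 library was thus above every day 14 library and within or below the range of sham. Scara5, a ferritin receptor, rose by 3.87 and Sost, the BMP and WNT antagonist sclerostin, by 3.55. The other genes of the 12 with the largest increase under that rule, leaving out predicted and small RNA genes, were Lrrn4cl, Enpp3, Qpct, Gsn, Entpd2, Fbln1, Pcsk6, Clec3b and Ptgfr, which rose by 3.38 to 3.63. Clec3b encodes tetranectin, Fbln1 a matrix glycoprotein and Ptgfr the receptor of prostaglandin F.

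Division genes were lower at day 30. All 28 tested genes of mitosis were lower than at day 14 (median -2.83), beside 31.1% lower over all genes. Of the list's 30 genes, 26 were under 1 RPKM in every day 30 library. Most tested members thus passed the filter only through libraries where they were higher. With summed levels of 5.35 and 6.37 RPKM in sham, these were mainly the day 14 libraries, so the count of 28 is a description only. Mki67, a nuclear protein of cycling cells, was at 6.2, 5.12 and 5.02 RPKM at day 14 and at 0.210, 0.316, 0.422, 0.573 and 0.622 RPKM at day 30. The times did not overlap, and Mki67 fell by 3.32 ± 0.24 (SE) on the log2 scale (adjusted p = 4.91e-07). Cdc20, which activates the anaphase-promoting complex, fell by 3.23, Plk1, the mitotic kinase, by 3.17, and Prc1, which bundles the spindle midzone, by 2.94. Against sham, 18 of the 28 were called higher at day 30 and none lower, beside 14.8% higher over all genes. The other 10 did not pass that test, among them Cdc20 (0.53, adjusted p = 0.0568) and Prc1 (0.29, adjusted p = 0.205). Mki67 in sham was at 0.0970 and 0.153 RPKM, so the mean at day 30, 0.429 RPKM, was 1.09 ± 0.28 (SE) above sham on the log2 scale (adjusted p = 0.0137). These log2 differences are of values plus a pseudocount of 0.1, which understates the change of low genes, and with a pseudocount of 1 the list's median was -1.42. The summed mitosis level was highest, at 116.4 RPKM, in day 14 replicate 1, the library with the lowest endothelial sum. It was lower, at 92.2 and 97.4 RPKM, in replicates 2 and 3. The part of endothelial RNA in the mitosis level was not tested.

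All 26 tested genes of DNA replication were lower as well (median -1.34), beside 31.1% lower over all genes. Here the day 30 level lay close to sham, with 1 gene called higher and 1 lower. Over all genes, 14.8% were higher and 14% lower than sham. Of the list's 30 genes, 16 were under 1 RPKM in every day 30 library. Those of them that were tested passed the filter only through libraries where they were higher, so the count of 26 is a description only. Rrm2, a subunit of the reductase that makes deoxynucleotides, was at 8.55, 6.06 and 6.9 RPKM at day 14, at 0.694 to 1.19 RPKM at day 30 and at 0.785 and 0.828 RPKM in sham. Rrm2 fell by 2.79 ± 0.16 (SE) on the log2 scale (adjusted p = 1.01e-07), and its difference from sham was -0.04 ± 0.18. Mcm5 and Mcm6, subunits of the replicative helicase, fell by 2.46 and 2.40. Fen1, the flap endonuclease, and Lig1, the ligase that joins Okazaki fragments, fell by 1.65 and 1.35. Among the 5 day 30 libraries, replicate 5 was the highest for 26 of the 28 mitosis genes and replicate 1 the lowest for 19.

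Genes of mitosis and of replication are known to carry different promoter elements, the cell-cycle homology region and the E2F site, and promoters from RefSeq (build GRCm38.p6) were searched for both. The windows ran from 250 bases before to 50 after each start, on both strands, and 8629 tested genes had one. The letters TTTGAA of the cell-cycle homology region were in 16 of 23 mitosis promoters (69.6%), in 3 of 21 replication promoters (14.3%) and in 13.4% of all. The letters TTCCCGC of the E2F site were in 9 of 21 replication promoters (42.9%), in none of the 23 mitosis promoters and in 9.54% of all. Neither motif contains the other, and a match is a description of the sequence. The 150 bases before the start are printed for 3 mitosis genes, with TTTGAA or its reverse complement in capitals.
Top2a, chr11:99024190-99024339 (- strand): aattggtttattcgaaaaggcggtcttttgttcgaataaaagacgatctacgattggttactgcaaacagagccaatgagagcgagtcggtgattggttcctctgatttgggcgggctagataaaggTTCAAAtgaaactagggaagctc
Cdc20, chr4:118437344-118437493 (- strand): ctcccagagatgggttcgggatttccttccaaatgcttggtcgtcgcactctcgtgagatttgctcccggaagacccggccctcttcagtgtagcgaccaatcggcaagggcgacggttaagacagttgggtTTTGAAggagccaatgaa
Prc1, chr7:80294326-80294475 (+ strand): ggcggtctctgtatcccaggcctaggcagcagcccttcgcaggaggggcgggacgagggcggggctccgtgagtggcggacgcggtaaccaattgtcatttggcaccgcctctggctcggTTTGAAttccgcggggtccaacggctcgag
In these windows the element lies 23 (Top2a), 18 (Cdc20) and 30 (Prc1) bases before the start. Top2a, which untangles DNA, fell from 5.99, 4.82 and 4.84 RPKM at day 14 to between 0.296 and 0.680 RPKM at day 30. For replication, Uhrf1, which maintains DNA methylation, and Rrm1, the large subunit of the reductase, are shown with TTCCCGC in capitals.
Uhrf1, chr17:56303187-56303336 (+ strand): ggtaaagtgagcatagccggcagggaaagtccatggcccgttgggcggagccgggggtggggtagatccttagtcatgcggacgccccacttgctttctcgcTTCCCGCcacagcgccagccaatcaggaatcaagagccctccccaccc
Rrm1, chr7:102441545-102441694 (+ strand): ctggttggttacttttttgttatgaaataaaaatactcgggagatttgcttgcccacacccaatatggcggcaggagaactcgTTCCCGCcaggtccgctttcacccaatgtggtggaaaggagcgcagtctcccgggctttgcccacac
Uhrf1 fell by 2.73 and Rrm1 by 1.10 on the log2 scale.

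The fibrotic list was divided. Of its 27 tested genes, 11 were lower at day 30, 6 higher and 10 not called (median -0.25), so that 63.0% were called, beside 59.6% of all genes. Tnc, tenascin-C of the injury matrix, was at 140, 98.5 and 110 RPKM at day 14 and at 19.3, 35.3, 33.3, 66 and 54.8 RPKM at day 30. Tnc fell by 1.46 ± 0.33 (SE) on the log2 scale (adjusted p = 0.00251) without overlap, and sham was at 1.5 and 1.14 RPKM. Spp1, osteopontin, was at 1341, 715 and 1297 RPKM at day 14, at 290 to 523 RPKM at day 30 and at 2.91 and 2.32 RPKM in sham. Its fall was 1.25 ± 0.31 (adjusted p = 0.0042), so that both genes had dropped and still stood far above sham. Adam12, a membrane metalloprotease, fell by 2.31 and Lox, which cross-links collagen, by 1.25. Runx1, a transcription factor of activated fibroblasts, fell by 1.13 and Inhba, the activin A subunit, by 1.47. Cthrc1, a collagen-associated secreted protein, was at 45.8, 32.6 and 42.2 RPKM and then at 10.5 to 26.7 RPKM. Its call (-0.92 ± 0.33, adjusted p = 0.0298) was lost without day 14 replicate 1 (adjusted p = 0.107), without day 14 replicate 3 (0.0779), without day 30 replicate 2 (0.0561) and with no filter on low genes.

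Of the genes of the list that did not pass the test between the times, Grem1, Postn and Ltbp2 were called higher than sham at both. Grem1, a BMP antagonist, was at 28.7, 21 and 25.5 RPKM at day 14, at 11.7 to 28 RPKM at day 30 and at 0.0785 and 0.0302 RPKM in sham. The times overlapped (log2 difference -0.25 ± 0.33, adjusted p = 0.529). Postn, periostin, gave 0.14 ± 0.19 (adjusted p = 0.547) and Ltbp2, a binding protein of elastic fibres, 0.37 ± 0.29 (adjusted p = 0.291). Without day 30 replicate 1, the lowest of the 5 at 35.6 RPKM against 73.1 to 105 RPKM, Ltbp2 passed as higher (0.64). Against sham, 11 genes of the list were higher at day 30 and 1, the actin gene Acta2, was lower, beside 14.8% higher and 14% lower over all genes. The genes of the list that rose were not high at day 14. Aspn, asporin, was at 12.3, 16.6 and 13.8 RPKM at day 14, at 46.4 to 61.3 RPKM at day 30 and at 54.4 and 43.8 RPKM in sham, and Fap, a surface protease, followed with 0.486 RPKM, 1.99 RPKM and a rise of 1.93. In both, the day 14 libraries were the low ones.

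**Figure D2:**
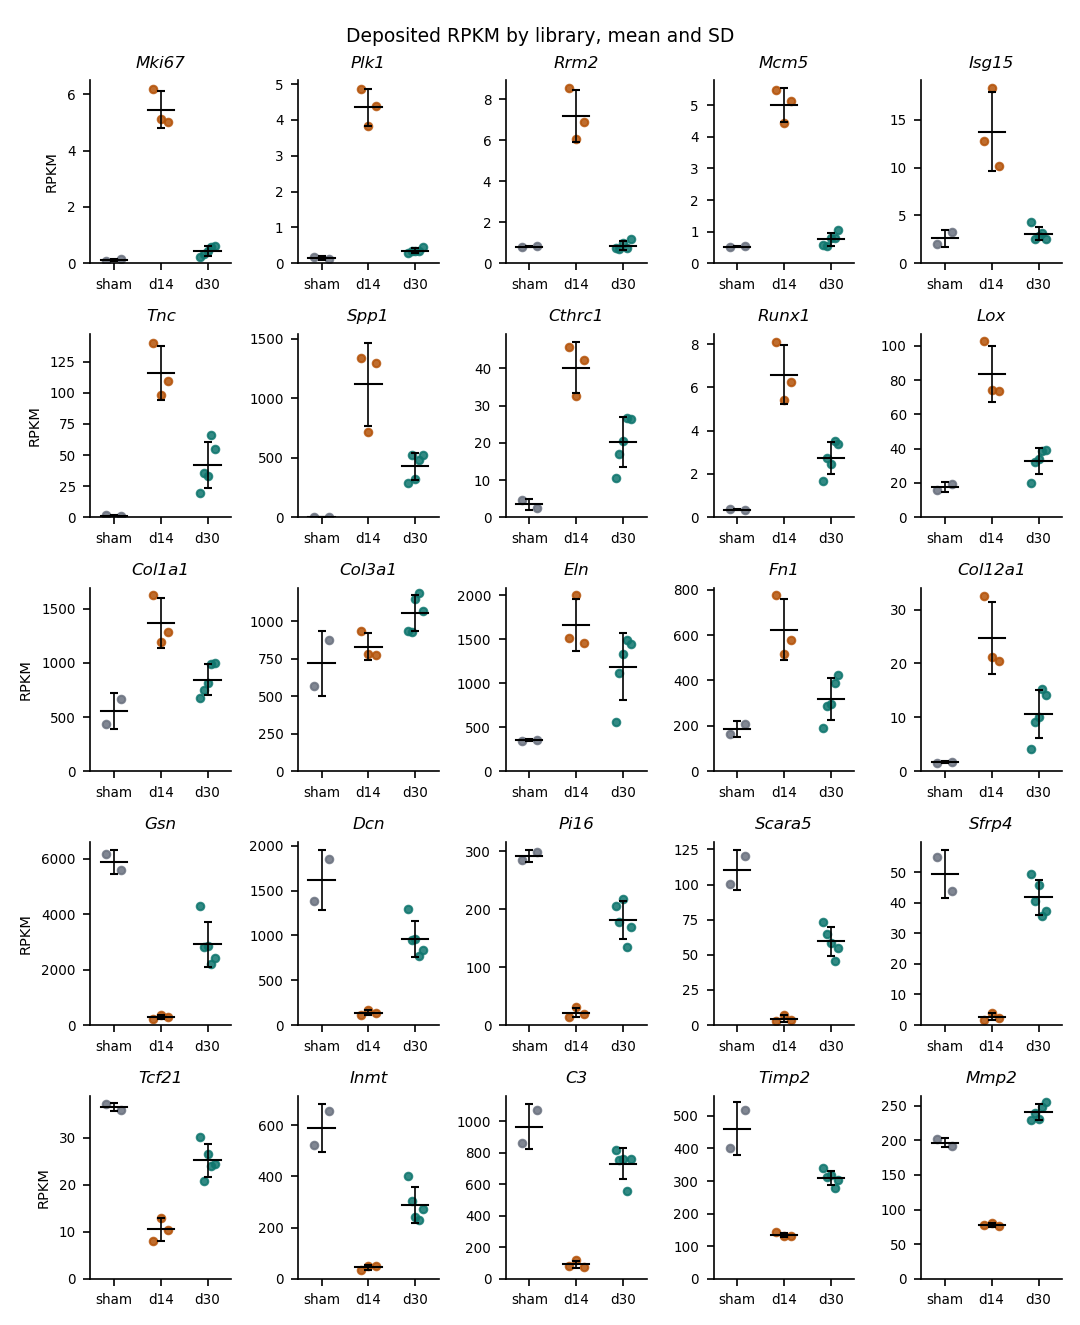
Levels of 25 genes in every library, 1 panel each, with RPKM on the y axis and the sham, day 14 and day 30 libraries along the x axis. Points are libraries, and bars their mean and SD. Mki67, Plk1, Tnc and Spp1 peak at day 14, whereas Dcn, Gsn and Pi16 dip at day 14 and are high in sham and at day 30.

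In the matrix itself, the main fibrillar collagen genes did not pass the test, though Col1a1 and Col3a1 did under some alternatives, and genes of small proteoglycans rose. Col1a1, whose promoter drives the reporter, was at 1633, 1196 and 1290 RPKM at day 14 and at 675, 749, 811, 987 and 997 RPKM at day 30. The values did not overlap, but the test was not passed (-0.58 ± 0.25 (SE), adjusted p = 0.0605). It was passed under 3 alternatives, among them the scale as deposited (-0.71) and the 8 bleomycin libraries alone (adjusted p = 0.0195). Col1a2 gave -0.08 ± 0.21 and Col3a1 0.46 ± 0.20 (adjusted p = 0.742 and 0.0609). Col3a1 passed as higher with upper-quartile scaling (adjusted p = 0.0461) and in the 8 bleomycin libraries alone (0.0145). Eln, elastin, kept 557 to 1487 RPKM at day 30 beside 1517, 2000 and 1459 RPKM at day 14 and 343 and 357 RPKM in sham, with overlap (-0.42 ± 0.29, adjusted p = 0.222). Fn1, fibronectin, fell by 0.88 to 192 to 424 RPKM, from 777, 517 and 579 RPKM. Col5a3, a minor fibrillar chain, fell by 1.70 and Col12a1, which binds to collagen fibrils, by 1.19, the last not without day 14 replicate 1 (adjusted p = 0.0583).

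Dcn, the collagen-binding proteoglycan decorin, was at 117, 169 and 131 RPKM at day 14 and at 1295, 950, 960, 776 and 840 RPKM at day 30. It rose by 2.91 ± 0.20 (SE) on the log2 scale (adjusted p = 2.89e-07) and remained below sham, which was at 1382 and 1856 RPKM. Lum, lumican, rose by 2.46 and Ogn, osteoglycin, by 2.30. Fbln1, fibulin-1 of the basement membrane, and Col14a1, a fibril-associated collagen, rose by 3.42 and 3.27. In total 11 of 29 fibrillar matrix genes were higher, 6 lower and 12 not called (median 0.22). The share called, 58.6%, was near the 59.6% of all genes.

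Collagen-processing enzymes split as well, with 10 of 26 higher and 11 lower (80.8% called, beside 59.6% of all genes). Lox and P4ha3, a prolyl hydroxylase subunit, were lower: P4ha3 was at 21, 16.9 and 17.6 RPKM at day 14 and at 3.29 to 12.6 RPKM at day 30 (-1.13 ± 0.32 (SE), adjusted p = 0.00998). Pcolce2 and Pcolce, enhancers of procollagen cleavage, rose by 2.49 and 1.08, and the propeptidase Adamts2 by 0.90. Loxl1, which cross-links elastin, rose by 0.72. Of 29 genes of matrix breakdown, 14 were higher and 7 lower (72.4% called). Mmp2, gelatinase A, was at 77.2, 81.2 and 75.7 RPKM at day 14 and at 230, 239, 231, 248 and 256 RPKM at day 30, a rise of 1.75 ± 0.09 (adjusted p = 7.04e-08) to near the 202 and 192 RPKM of sham. Spread within each time was small for this gene. Adamts5, an aggrecanase, rose by 1.81, and the cathepsin gene Ctsl by 1.53. The inhibitors Timp2 and Timp3 rose by 1.32 and 1.37. The collagenases Mmp13 and Mmp8 fell by 1.91 and 1.85, and Mmp14, a membrane collagenase, was not called (-0.22). Mmp12, the macrophage elastase, rose by 2.12, from 0.409, 2.38 and 1.49 RPKM to between 2.41 and 6.98 RPKM, with sham under 0.02 RPKM. It was lowest in day 14 replicate 1, where the macrophage marker sum was lowest too (247 RPKM, beside 846 and 600 RPKM). The part of macrophage RNA in this rise was not tested.

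**Figure D3:**
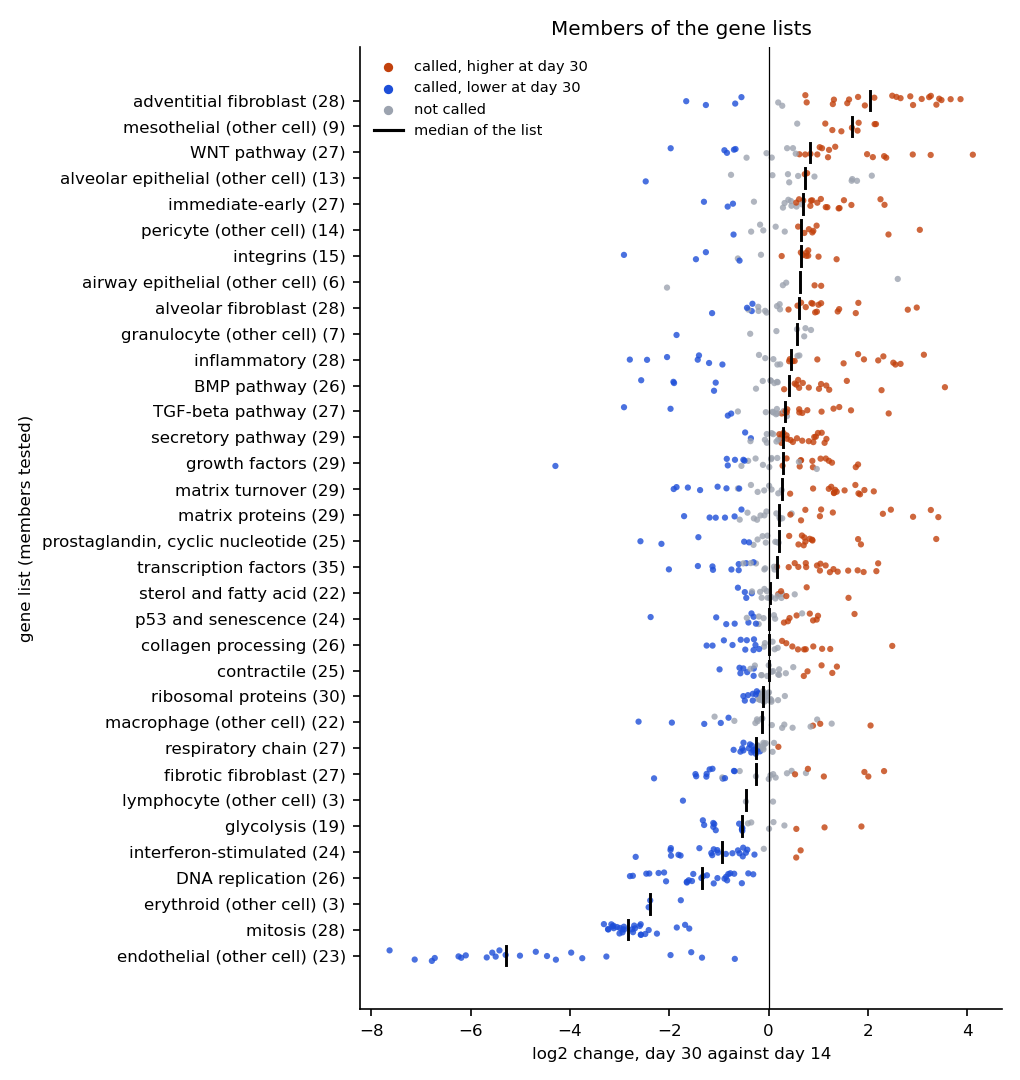
Log2 difference of day 30 from day 14 for the tested members of each list, 1 row per list, with the median marked. Each point is a gene, coloured where called. The mitosis, replication and endothelial rows lie wholly left of 0, and the adventitial row lies mostly to the right.

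Most adventitial genes rose toward sham and stayed below it. Of 28 genes, 22 were higher at day 30, 4 were lower and 2 were not called (median 2.04), beside 28.5% higher over all genes. Gelsolin, which severs actin filaments and is encoded by Gsn, was at 209, 349 and 289 RPKM at day 14 and at 4280, 2805, 2849, 2215 and 2404 RPKM at day 30. Gsn rose by 3.48 ± 0.23 (SE) on the log2 scale (adjusted p = 2.36e-07), and sham was at 6189 and 5589 RPKM. Pi16, a protease inhibitor that marks these cells, was at 14.4, 30.7 and 19.8 RPKM, then at 135 to 218 RPKM, with sham at 285 and 299 RPKM (3.23 ± 0.22, adjusted p = 2.93e-07). In both genes the 3 groups were apart, with day 30 between day 14 and sham. Against sham, 21 of the 28 were still lower at day 30 and none higher (median -0.87), beside 14% lower over all genes. Clec3b, tetranectin, rose by 3.38, Entpd2, an ectonucleotidase, by 3.44, and the transcription factors Ebf2 and Ebf1 by 3.67 and 1.94. Ly6c1 and Ly6a, surface antigens that endothelial cells also carry, fell by 1.66 and 1.26. They were lower in day 14 replicate 1 (69.1 and 140 RPKM) than in replicates 2 and 3 (119 and 99.9 RPKM, and 260 and 228 RPKM), as the endothelial sum was. The summed level of the adventitial list was lowest there too, at 1104 RPKM beside 1550 and 1338 RPKM. Endothelial RNA's part in these falls was not tested. Dpp4 was not called (0.19 ± 0.35).

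The alveolar fibroblast list rose in part, with 16 of 28 higher, 4 lower and 8 not called (median 0.62). Over all genes, 28.5% were higher and 31.1% lower. Tcf21 was at 8.14, 12.9 and 10.4 RPKM at day 14, at 20.8 to 30 RPKM at day 30 and at 37.2 and 35.8 RPKM in sham. Its rise was 1.39 ± 0.13 (SE, adjusted p = 3.45e-06), and day 30 lay between the other groups. Inmt, a methyltransferase of alveolar fibroblasts, rose by 2.80, the hedgehog co-receptor Cdon by 2.98, and the amino acid transporter Slc7a10 by 1.42. The integrin gene Itga8 rose by 1.01 and Pdgfra, the receptor of PDGF-A, by 0.65. Npnt, nephronectin, and Wnt2 were not called (0.22 and -0.04). Plin2, a lipid-droplet coat protein, was at 13.4 RPKM and 10.8 RPKM, above the 4.50 and 4.84 RPKM of sham at both times, and the times overlapped (-0.20 ± 0.15). Col4a1, a basement membrane collagen that endothelial cells make as well, fell by 1.14, with day 14 replicate 1 at 286 RPKM and replicates 2 and 3 at 299.6 and 307 RPKM.

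Contractile genes as a group did not move one way. Of 25 tested, 5 were higher, 7 lower and 13 not called, so that 48% were called, beside 59.6% of all genes. Acta2, smooth muscle actin, was at 239, 253 and 283 RPKM at day 14 and at 341, 284, 196, 234 and 228 RPKM at day 30. The times overlapped fully (0.09 ± 0.23 (SE), adjusted p = 0.744), and sham was at 556 and 278 RPKM. Tagln gave a difference of 0.00 ± 0.21. The smooth muscle myosin Myh11 and the actin nucleator Lmod1 rose by 1.07 and 1.38, whereas the cytoskeletal genes Tpm4 and Vcl fell by 0.99 and 0.59. Of 15 integrins, 9 were higher and 4 lower, beside 28.5% and 31.1% of all genes. Itga11, a collagen receptor subunit, rose by 1.37 and Itgb5 by 0.76. Itga5, of the fibronectin receptor, fell by 1.46, from 50.1, 33.4 and 44.1 RPKM to between 13.4 and 14.9 RPKM. Itga6, of laminin receptors, fell by 2.91 and was lowest in day 14 replicate 1 (2.57 RPKM, beside 4.01 and 3.92 RPKM).

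Within the TGF-beta pathway the ligand genes moved apart. Tgfb1 was at 20.7, 24 and 24.6 RPKM at day 14 and at 9.29 to 14.7 RPKM at day 30, a fall of 0.75 ± 0.12 (SE, adjusted p = 0.000256), and it stayed above the 4.13 and 3.9 RPKM of sham. Tgfb3 rose by 1.31, from 17.8, 22.5 and 19.8 RPKM to between 39.4 and 56.8 RPKM, above sham at 31 and 32 RPKM. Neither gene's times overlapped. Of the receptors and carriers, Tgfbr3, betaglycan, rose by 1.42 and Ltbp4, which holds latent TGF-beta in the matrix, by 2.42. The signal transducer Smad3 rose by 1.07. Ctgf, a matricellular target, was called higher (0.62 ± 0.23, adjusted p = 0.0328), but the call was lost without any of the 3 day 14 libraries, without day 30 replicate 1 or 3, with no filter and on the scale as deposited. The inhibitor Smad6 fell by 2.91 and Eng, endoglin, by 1.98. In total 14 of 27 genes were higher and 4 lower (median 0.33), so that 66.7% were called, beside 59.6% of all genes.

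In the BMP pathway, 14 of 26 genes were higher and 5 lower (median 0.42), so that 73.1% were called, beside 59.6% of all genes. The antagonist gene Chrd, which encodes chordin, rose by 1.58. The ligand gene Bmp6 fell by 2.57, the receptors Acvrl1 and Bmpr2 by 1.92 and 1.10, and the target Id1 by 1.90. These 4 genes, with Smad6 and Eng, are known in endothelial cells, and in all 6 day 14 replicate 1 was the lowest of the 3: Id1 was at 16.7 RPKM beside 29.3 and 25.9 RPKM, and Smad6 at 15.9 RPKM beside 27.2 and 23.9 RPKM. Genes that rose, such as Scara5, were lowest in that library too, and the part of endothelial RNA in these falls was not tested.

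In the WNT list 16 of 27 genes were higher, 5 lower and 6 not called (median 0.84), beside 28.5% higher and 31.1% lower over all genes. The ligand Wnt2b was at 0.147, 0.3 and 0.208 RPKM at day 14, at 1.99 to 4.02 RPKM at day 30 and at 6.8 and 8.27 RPKM in sham (3.27 ± 0.26 (SE), adjusted p = 9.51e-07). Wnt10b rose by 2.90, Wnt9a by 2.10 and Wnt5a by 1.34, and the agonist Rspo1 by 2.37. Wnt2b and Wnt10b remained below sham, and Wnt9a and Wnt5a differed from it by 0.04 ± 0.13 and -0.15 ± 0.11. The antagonist Dkk2 went a different way, with 0.285 and 0.252 RPKM in sham, 0.987, 1.59 and 1.37 RPKM at day 14 and 3.34, 6.67, 5.78, 8.83 and 9.18 RPKM at day 30. It rose by 2.33 ± 0.51 (adjusted p = 0.00221) and was 4.03 ± 0.59 above sham (adjusted p = 0.000831), so that its level was highest at the later time. Notum, a deacylase that inactivates WNT ligands, fell by 1.97, from 11.8, 6.97 and 11.7 RPKM to between 1.6 and 2.74 RPKM. Axin2, a target of canonical WNT signalling, was not called (0.37 ± 0.16, adjusted p = 0.0699), and passed without day 30 replicate 1 (0.45) or replicate 3 (0.47).

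Growth factor genes gave 13 of 29 higher and 6 lower, so that 65.5% were called, near the 59.6% of all genes. Pdgfrb, the receptor of PDGF-B, rose by 0.88, Fgfr1 by 0.89, Angpt1, a ligand of the vessel receptor Tie2, by 1.05 and Igf2 by 1.28. Pdgfb fell by 4.29, from 13.4, 26.3 and 24.9 RPKM to between 0.797 and 0.948 RPKM. Endothelial cells are a known source of this ligand, and its day 14 level was lowest in replicate 1. The part of endothelial RNA was not tested. Igf1 was not called (-0.11 ± 0.19 (SE), adjusted p = 0.621) and was above sham at both times, at 27.7 to 36.6 RPKM at day 14 and 18.6 to 34.6 RPKM at day 30 against 8.83 and 12.3 RPKM. Hgf and Fgf10, which act on epithelium, were not called either (-0.26 and 0.01).

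Inflammatory genes went both ways. Of 28, 14 were higher and 7 lower (median 0.45), so that 75% were called, beside 59.6% of all genes. The complement gene C3 was at 79.2, 120 and 77.5 RPKM at day 14 and at 820, 757, 764, 559 and 758 RPKM at day 30, a rise of 3.13 ± 0.18 (SE, adjusted p = 1.06e-07) toward the 865 and 1069 RPKM of sham. C4b, also of complement, rose by 2.51 and the alarmin Il33 by 2.56. Among the genes that fell, Saa3, a serum amyloid gene, was at 70.1, 42.6 and 41.2 RPKM, then at 5.58 to 7.81 RPKM, and in sham at 0.919 and 0.627 RPKM. Saa3 fell by 2.79 ± 0.26 (adjusted p = 3.91e-06), Hp, haptoglobin, by 2.45, and the chemokine Cxcl14 by 1.4. Cxcl13, which attracts B cells, was at 9.52, 8.02, 20.8, 23 and 46.4 RPKM at day 30 and at 3.64 to 4.83 RPKM at day 14. It rose by 2.21 ± 0.49 (adjusted p = 0.00234) with a wide spread between the day 30 libraries. Ccl2 was not called (0.23). Il6 was called higher (1.51 ± 0.48, adjusted p = 0.0171), with 94.3 RPKM in day 30 replicate 1 and 19.6 to 35.4 RPKM in the others, and lost the call without day 14 replicate 3.

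Interferon-stimulated genes were lower at day 30 in 21 of 24 cases (median -0.94), with 2 higher, beside 31.1% lower over all genes. Of the list's 30 genes, 9 were under 1 RPKM in every day 30 library. Any of these that were tested passed the filter only through libraries where they were higher. For them the count is a description only. Isg15, a ubiquitin-like antiviral protein, was at 12.8, 18.3 and 10.2 RPKM at day 14, at 2.57 to 4.29 RPKM at day 30 and at 2 and 3.25 RPKM in sham. It fell by 1.98 ± 0.23 (SE, adjusted p = 1.91e-05), and its difference from sham was 0.13 ± 0.26. Oas2 and Oas1a, sensors of double-stranded RNA, fell by 2.68 and 1.97, and Irf7, a transcription factor of the response, by 1.97. Day 14 replicate 2 was the highest of the 3 in each of these, with Oas2 at 3.62 RPKM beside 1.09 and 2.14 RPKM. Without that library the list's median was -0.68. It also had the highest macrophage and endothelial sums of the day 14 libraries, whose part in the fall was not tested. Gbp2, a guanylate-binding protein, was called higher (0.65 ± 0.18, adjusted p = 0.00856).

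The interferon response acts through the interferon-stimulated response element, and its letters, GAAA, any 2 bases and GAAA again, were in 12 of 20 promoters of the list (60%) and in 3.63% of the 8629. Runs of this element may overlap one another. The 150 bases before the start are given for 3 genes, with all matches on either strand in capitals.
Isg15, chr4:156200819-156200968 (- strand): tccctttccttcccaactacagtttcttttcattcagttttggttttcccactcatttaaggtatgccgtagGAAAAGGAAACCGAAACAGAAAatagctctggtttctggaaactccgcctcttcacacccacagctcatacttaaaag
Ifit1, chr19:34640739-34640888 (+ strand): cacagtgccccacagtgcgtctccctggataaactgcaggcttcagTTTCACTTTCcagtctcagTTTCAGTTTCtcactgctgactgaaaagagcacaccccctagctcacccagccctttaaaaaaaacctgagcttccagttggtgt
Oas1a, chr5:120907526-120907675 (- strand): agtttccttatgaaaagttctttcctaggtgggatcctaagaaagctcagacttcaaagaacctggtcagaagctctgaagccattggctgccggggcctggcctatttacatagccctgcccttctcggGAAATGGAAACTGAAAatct
Isg15 holds 3 overlapping matches, and Ifit1 and Oas1a hold 2 each. Ifit1, which binds foreign RNA ends, fell by 1.81 from 2.88, 4.42 and 2.39 RPKM to between 0.570 and 1.13 RPKM, with sham at 0.680 and 2.56 RPKM.

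Immediate-early genes, which stress and tissue handling are known to induce within minutes, were higher at day 30 in 16 of 27 cases and lower in 3 (median 0.70). Over all genes, 28.5% were higher and 31.1% lower. Egr1 was at 90, 105 and 101 RPKM at day 14, at 356, 239, 220, 198 and 228 RPKM at day 30 and at 489 and 300 RPKM in sham. The rise was 1.43 ± 0.19 (SE, adjusted p = 5.28e-05). Fosb rose by 1.52, Fos by 1.18 and the heat-shock gene Hspa1b by 2.33, whereas Fosl1 and Ier3 fell by 1.30 and 0.82. Day 30 replicate 1 was the highest of the 5 in 24 of the 27 genes. The summed level was 1385 to 1499 RPKM at day 14 and 2188 to 3763 RPKM at day 30, and the 2 sham libraries, at 4291 and 1912 RPKM, lay more than 2-fold apart.

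Among metabolic genes, 11 of 19 of glycolysis were lower and 3 higher (median -0.53), beside 31.1% lower and 28.5% higher over all genes. Pkm, pyruvate kinase, was at 120, 104 and 115 RPKM at day 14, at 41.6 to 51.0 RPKM at day 30 and at 39.1 and 35.9 RPKM in sham. It fell by 1.11 ± 0.09 (SE, adjusted p = 8.62e-07) and differed from sham by 0.23 ± 0.10, which was not called. Pfkl, phosphofructokinase, fell by 1.32 and Ldha, the lactate-forming dehydrogenase subunit, by 1.09. The other subunit gene, Ldhb, rose by 1.87, from 1.84, 2.61 and 2.45 RPKM to between 6.82 and 9.75 RPKM. Of 27 oxidative phosphorylation genes 17 were lower (median -0.25), and Cox5a, a cytochrome oxidase subunit, fell by 0.70. Ribosomal protein genes were mostly not called (22 of 30, with 8 lower). Sterol and fatty acid synthesis showed no single direction, with 5 higher and 4 lower of 22. The desaturase gene Scd1 was called higher (1.61 ± 0.40), with day 30 replicate 3 at 39.7 RPKM and the other 4 at 9.48 to 9.76 RPKM, all above the 4.3 to 4.84 RPKM of day 14. That library is the one with alveolar epithelial RNA, and that cell type's part in the Scd1 level was not tested.

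Of 29 secretory and unfolded-protein genes, 19 were higher and 2 lower (median 0.30), beside 28.5% higher and 31.1% lower over all genes. Hspa5, the chaperone BiP, rose by 1.07 ± 0.14 (SE, adjusted p = 4.67e-05), from 76.7, 72.8 and 76.2 RPKM to between 122 and 172 RPKM, beside 135 and 106 RPKM in sham. Ddit3, the stress factor CHOP, rose by 1.13. In the p53 and senescence list 9 of 24 were higher and 8 lower (70.8% called, beside 59.6% of all genes). Cdkn1a, the p21 inhibitor of the cell cycle, was at 38.5, 51.3 and 49.3 RPKM at day 14 and at 18.9 to 21.7 RPKM at day 30, a fall of 1.05 ± 0.10 (adjusted p = 3.91e-06) that left it above sham (14 and 11.5 RPKM). Phlda3, a p53 target, fell by 0.85. Cdkn2a, which encodes p16 and p19, was at 2.48, 2.11 and 2.36 RPKM and at 0.856, 2, 1.62, 2.94 and 2.47 RPKM, and in sham at 0.0253 and 0.0711 RPKM. The times overlapped (-0.20 ± 0.33, adjusted p = 0.619), and day 30 was 3.64 ± 0.37 above sham (adjusted p = 0.000132). Cdkn1c, p57 of resting cells, rose by 1.73.

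Of 35 transcription factors of lung mesenchyme, 18 were higher, 9 lower and 8 not called (77.1% called, beside 59.6% of all genes). Osr1 was at 5.27, 6.41 and 5.21 RPKM at day 14, at 20.7 to 27.6 RPKM at day 30 and at 35 and 32.5 RPKM in sham (2.21 ± 0.10 (SE), adjusted p = 5.77e-08). Foxp2 rose by 2.17, the hedgehog effector Gli1 by 1.6, Gata6 by 1.31 and Prrx1 by 1.03. Snai1, known from mesenchymal activation, fell by 1.12, but other factors of that kind did not fall. Twist1, Twist2, Zeb1 and Zeb2 rose by 1.15, 1.79, 0.17 and 0.41, and Snai2 was not called (0.17). Tbx3 and Foxf1 fell by 1.42 and 2.01. Foxf1 is known in endothelial cells too, and was at 18.4 RPKM in day 14 replicate 1 and at 38.2 and 34.9 RPKM in replicates 2 and 3. In the prostaglandin and cyclic-nucleotide list, 12 of 25 were higher and 5 lower (68% called). The receptor genes Ptgfr and Ptgir, for prostaglandin F and prostacyclin, rose by 3.38 and 1.86, the synthase gene Ptgs2 by 1.80, and Npr2, the receptor of C-type natriuretic peptide, by 0.88. The cyclase gene Adcy4 fell by 2.58 and was lowest in day 14 replicate 1 (5.31 RPKM) among the 3.

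**Figure D4:**
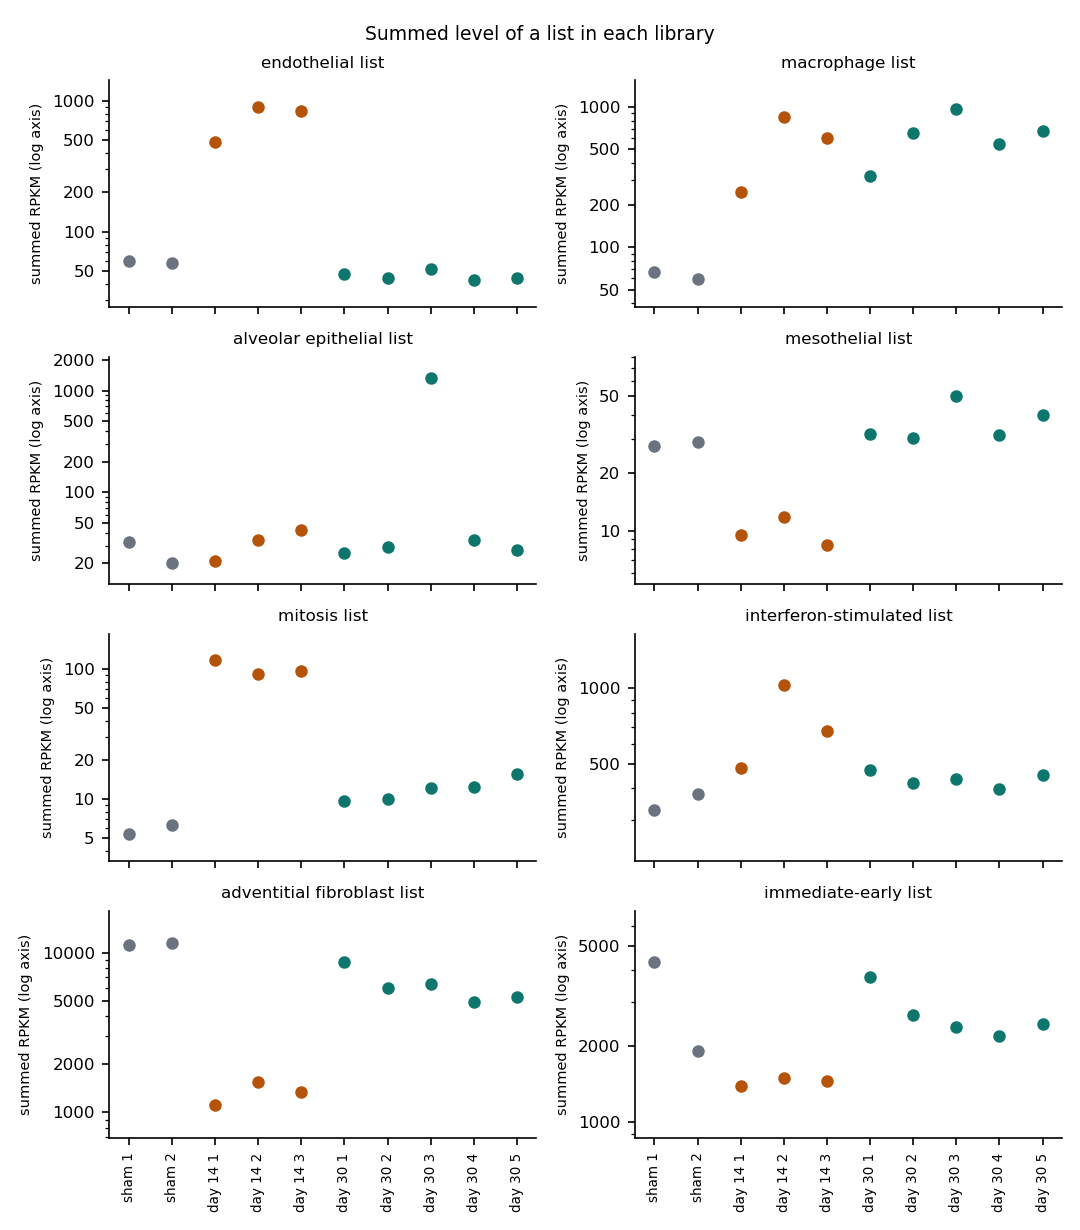
Summed RPKM of 8 lists in each library, on a log axis, with 1 point per library of sham, day 14 and day 30. The endothelial and mitosis sums are high only at day 14, the alveolar epithelial sum is 1338 RPKM in 1 day 30 library, and the adventitial sum at day 30 (4889 to 8760 RPKM) lies between day 14 (1104 to 1550 RPKM) and sham.

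Markers of other cells gave the following. Macrophage genes were mostly not called (14 of 22, with 3 higher and 5 lower), and their sums overlapped between the times (247 to 846 RPKM at day 14, 322 to 974 RPKM at day 30), both above the 59.9 to 66.3 RPKM of sham. Arg1 and Cd74 fell by 2.62 and 1.95, and Gpnmb, a lysosomal glycoprotein, rose by 2.05. Mesothelial genes were higher in 8 of 9 cases (median 1.68), beside 28.5% higher over all genes. Their sums over 12 markers were 8.43 to 11.8 RPKM at day 14, 30.4 to 50 RPKM at day 30 and 27.4 and 28.7 RPKM in sham. With day 14 sums this low, members may have passed the filter only through libraries where they were higher. This count is therefore a description only. The times did not overlap in 5 of the 9 genes, beside 60.9% of all genes. Upk3b and Msln, which mark mesothelium, were at 1.09 to 4.73 RPKM and 1.42 to 6.88 RPKM at day 30. Without day 14 replicate 3 the calls of Msln and Wt1 were lost (adjusted p = 0.0862 and 0.0503), and that of Wt1 also with a pseudocount of 1 (0.0661). Pericyte genes were higher in 8 of 14, with Mcam lower (-0.71) and 5 not called, among them Cspg4 and Notch3. Mcam lost its call without day 14 replicate 2 (adjusted p = 0.0609) or replicate 3 (0.0531). The list's median was 0.66, and 64.3% were called, beside 59.6% of all genes. The channel subunit genes Abcc9 and Kcnj8 rose by 3.05 and 2.42, and Abcc9 was at 23 to 25.3 RPKM at day 30, at 2.31, 4.24 and 3.02 RPKM at day 14 and at 33.3 and 29.4 RPKM in sham. The 3 tested erythroid genes were lower (Hbb-bs by 2.42). Few genes of the other lists were called: 1 of 7 granulocyte genes and 1 of 3 lymphocyte genes were lower, 2 of 13 alveolar epithelial genes were higher and 1 lower, and 2 of 6 airway epithelial genes were higher.

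The 5 day 30 libraries were not alike. Replicate 1 was the lowest of the 5 in 20 of the 27 fibrotic genes and in 17 of the 29 fibrillar matrix genes, and the highest in 21 of the 28 adventitial genes. Over all genes it was lowest in 30.1% and highest in 28.3%. Eln was at 557 RPKM in this library and at 1120 to 1487 RPKM in the other 4, and Clec3b at 796 RPKM against 369 to 513 RPKM. Replicate 4 was the lowest in 22 of the adventitial genes. In Tnc, Spp1, Lox and Fn1 the library nearest to day 14 stayed below every day 14 value, and in Gsn, Dcn and Pi16 the lowest day 30 library stayed above every day 14 value. The times did not overlap in 60.9% of all genes and in 17 of the 27 fibrotic genes. Gsn was also named by a rule that required no overlap. Sham replicate 2, which held Y-linked RNA as the day 14 libraries do, was at 5589 RPKM for Gsn, 1856 RPKM for Dcn, 0.153 RPKM for Mki67 and 2.32 RPKM for Spp1. The part of sex in these genes after bleomycin was not tested, and it cannot be told apart from time here.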

How the data were processed

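RNA-seq libraries were made by the submitters from 200 ng of total RNA by poly(A) selection with 12 PCR cycles, where RNA quality (RQN) was 6 or more, per the labels' protocols. The deposited values are RPKM, computed by the authors on mm10, per the submitters' processing notes. The aligner, counter and annotation are not given in the sources used here. Depth was estimated from the smallest RPKM steps, and 1 read in a gene of 2 kb was worth 0.0025 to 0.0074 RPKM.

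RPKM were scaled by a trimmed mean of log ratios (30% of ratios and 5% of levels trimmed), and log2(value + 0.1) was fitted with limma 3.58.1 in R 4.3.3 on all 13 libraries (group means, trend and robust empirical Bayes), and tested on simulated data. P-values were two-sided and adjusted over 12938 genes. Genes on X or Y (377) or without a chromosome (249) were not described.

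The members and the 34 gene lists were chosen with earlier results of these data known. The text names from the 12 largest called changes per direction, the 5 list members with the smallest p, 40 panel genes and the abundant markers of other cells. A further 32 list members were named after their values were seen, and the motif of the interferon promoters was added then too. Another motif, the CArG box, was searched for in the immediate-early promoters. It was in 2 of 22 (9.09%) and in 1.52% of all promoters. Alternatives covered the pseudocount, filter, scaling, libraries fitted, variance model, replicate block and each bleomycin library left out.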

Additional observations from a re-analysis of the deposited data

Results flagged for a closer look

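In the 5 day 30 libraries, 19 named genes had 1 library far from the other 4, with a gap of more than 0.71 of the range. Chance marks about 1 in 20 such groups. Of these, 12 lay in replicate 3. Epithelial genes were high there: Sftpc 969.6 RPKM (others 4.14 to 10.7), Sftpb 123.3, Scgb1a1 123.2, Cyp2f2 15.17 and Abca3 9.904 RPKM. Scd1 was at 39.74 RPKM (others 9.48 to 9.76). Endothelial genes were at 0.6908 (Cdh5), 0.176 (Eltd1), 0.1076 (Sox17) and 0.1858 RPKM (Acer2), each the highest of the 5 and far below day 14. The macrophage gene Fcgr1 was at 0.4574 RPKM and Gli1, here the lowest, at 10.32 RPKM.

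Replicate 1 was highest for Il6 (94.28 RPKM), Egr1 (355.8 RPKM) and Ddit3 (10.49 RPKM). Replicate 4 was lowest for C3 (559.4 RPKM) and Ctsl (138 RPKM). Replicate 5 was highest for Adcy4 (1.133 RPKM) and Mmp8 (1.232 RPKM).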

How the results depend on the processing

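Over 17 alternatives, 217 of the 246 named genes kept their call and their direction wherever they could be fitted, 29 lost or gained a call in at least 1, and none reversed. The number of called genes was 7343, and it was 7248 to 7623 with other pseudocounts, scalings, variance models or the 8 bleomycin libraries alone. With no filter it was 8965 of 28038 genes. With at least 5 RPKM in 3 libraries, 5169 genes were tested and 3409 called (1546 higher and 1863 lower), fewer because fewer were tested. Leaving out 1 library gave 6323 (without day 14 replicate 3) to 7244 called genes (without day 30 replicate 3, the library with alveolar epithelial RNA), 3013 to 3487 of them higher and 3310 to 3757 lower. Scaled by the upper quartile, 3784 were higher and 3464 lower, and on the scale as deposited the higher share was 34.2% instead of 47.8%. On that scale the medians of the collagen-processing, contractile, sterol and p53 lists, all within 0.04 of 0, turned negative (-0.12, -0.12, -0.083 and -0.12). The macrophage median turned from -0.13 to 0.29 without day 14 replicate 2.

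The replicate numbers are shared between the times, but libraries of the same number did not deviate together (r = 0.0057, -0.039 and 0.136 for the 3 numbers), so they share only a number. With the replicate number as a block, 5720 genes were called (2826 higher, 2894 lower), and 14 named genes changed their call. Under the block Col1a1 passed as lower (-0.72, adjusted p = 0.0392), and Gbp2, Msln, Wt1, Krt19 and Cd74 did not pass (adjusted p = 0.0547, 0.111, 0.0771, 0.0587 and 0.0768). Precision for low genes is limited by the day 14 depth and by the 3 libraries there.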
